A study of Mus musculus with 8 samples.

Results

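Genes that break down purine nucleotides were examined in crypt organoids, miniature epithelia that grow in Matrigel from crypts of the small intestine. The 7 genes were chosen by name for their known roles and cover the path from extracellular ATP to urate: Entpd8, Nt5e, Slc28a1, Slc28a2, Ada, Pnp and Xdh. All 7 had at least one value in the deposited files, among 14122 genes with a value. RNA sequencing had been carried out on 8 samples, 4 WT and 4 MG53-TG. MG53-TG mice carry a transgene for MG53, a membrane repair and ubiquitin ligase protein encoded by Trim72, that is overexpressed globally, and the design text names wild-type littermates as the controls. The study also describes crypt organoids of MG53;Lgr5 and Lgr5 mice, and whether the sequenced samples carried that Lgr5-EGFP-IRES-CreERT2 knock-in as well is not settled by the sources used here. Organoids of both genotypes were grown in IntestiCult OGM medium and passaged, no treatment was named in the labels, and neither the age of the mice nor the promoter of the transgene was given in the sources used here. No source says that each sample came from a different mouse, so the p-values below measure the spread between these samples, which may be technical. Trim72 had no entry in the 4 WT samples and had 16.4, 27.4, 31.9 and 36.5 FPKM in the MG53-TG samples.

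Purine breakdown starts outside the cell. Surface enzymes strip phosphates from ATP, ADP and AMP, sodium-coupled carriers take up the resulting nucleosides, and enzymes inside the cell turn adenosine into inosine, inosine into hypoxanthine, and hypoxanthine into xanthine and urate. In the small intestine this set of enzymes is known for its expression by enterocytes towards the tip of the villus, where adenosine, a dampener of immune responses, can be formed and removed.

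The values were FPKM, that is, fragments scaled to transcript length and to the number of mapped fragments. They were listed for transcript events, such as starts, ends, skipped exons and retained introns, rather than for genes, and a gene's value here is the sum over its starts, or over its ends where these had the higher mean. Summed over all starts, FPKM lay between 264792 and 277638 per sample. The smallest FPKM was 1e-06, the values are estimates rather than scaled whole counts, and the depth behind them is unknown, so no counting interval is given. WT and MG53-TG were compared by limma on the log2(FPKM + 1) scale, on which differences of low genes come out too small, for the 10987 genes that averaged 0.5 FPKM or more. A gene was called at an adjusted p (Benjamini-Hochberg) of at most 0.05. In these bulk samples, fewer cells of a type and less RNA per cell cannot be told apart.

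MG53-TG samples 3 and 4 stood apart from samples 1 and 2 in several gene groups. The sum over 6 stem cell markers was 276 and 292 FPKM in samples 1 and 2 but 89.1 and 56.1 FPKM in samples 3 and 4, and that over 8 proliferation genes was 356 and 363 against 174 and 127 FPKM. Krt20, a keratin of mature enterocytes, had 81.6, 76.8, 186 and 198 FPKM in MG53-TG samples 1 to 4. Each pair was left out in turn, an alternative added after the values had been seen. Without samples 3 and 4 the log2 fold changes of Ada, Entpd8 and Xdh were 1.56, 1.51 and 2.14 (limma adjusted p = 0.000533, 0.0336 and 0.0181 in that order). Without samples 1 and 2 they were 1.5, 2.07 and 2.85, and all 3 were called in both fits.

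The enzyme genes Entpd8, Ada and Xdh were higher in MG53-TG organoids, with ratios of mean FPKM of 6.42, 3.18 and 7.80. The carriers and Nt5e were low in both groups, at no more than 3.98 FPKM in any sample by the sums above. For Pnp the direction depended on the event that was read, and its listed starts were incomplete in some samples. Of the 7 genes, 5 passed the filter, of which 3 were called higher and 0 lower. Of all genes tested 44.3% were called, 15.5% higher and 28.8% lower. Among the 5 that passed the filter, the same 3 genes had groups that did not overlap, as did 15.7% of all genes tested in the higher direction and 28.8% in the lower.

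**Figure D1:**
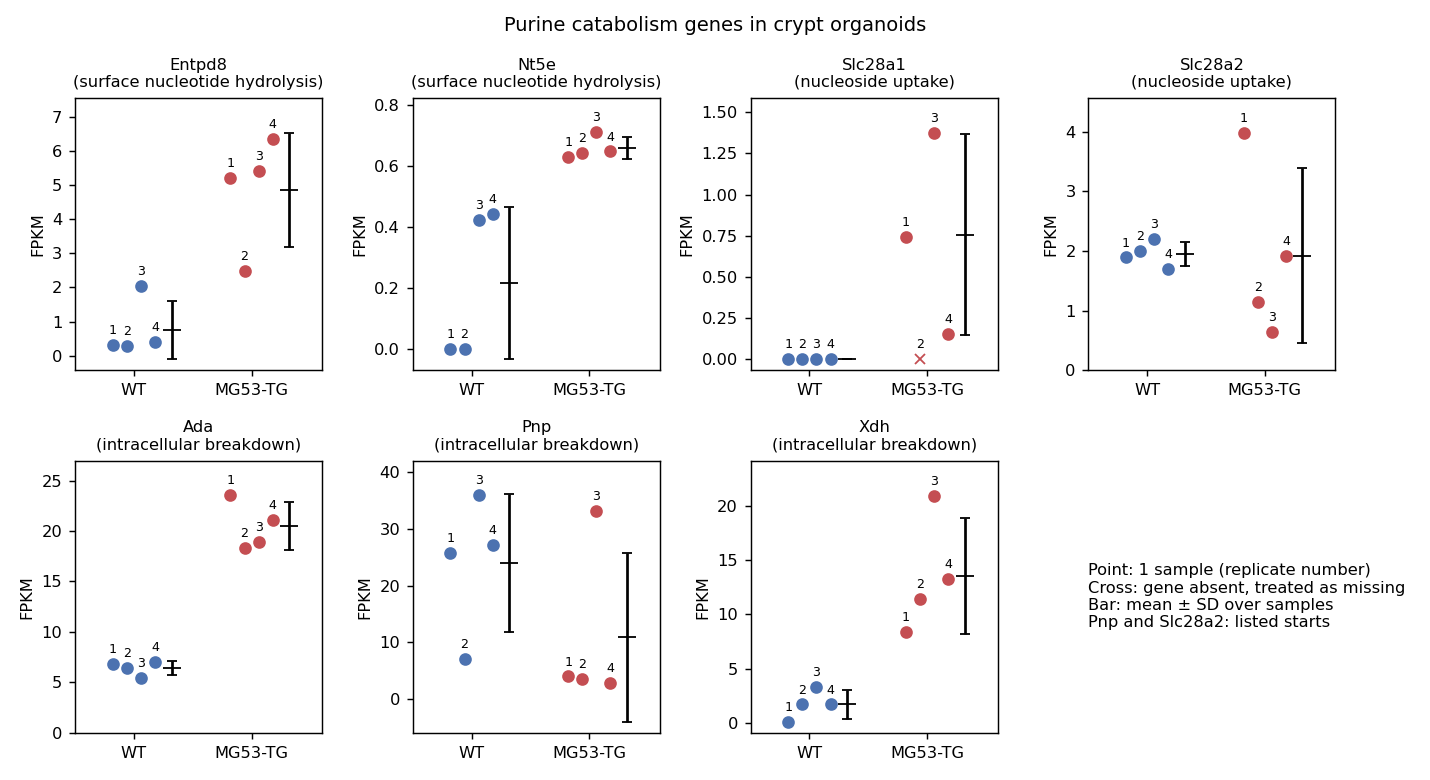
FPKM of each of the 7 genes (vertical axes, linear, a scale of its own in each panel) in the 4 WT and the 4 MG53-TG samples, numbered by replicate, with the mean ± SD beside them. Entpd8, Ada and Xdh lie higher in all 4 MG53-TG samples than in any WT sample, whereas the groups overlap for Slc28a2 and for the listed starts of Pnp.

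Entpd8 (chr2:25080304-25085716, plus strand, GRCm38) encodes an ectonucleoside triphosphate diphosphohydrolase that removes terminal phosphates from extracellular nucleotides. The WT samples had 0.304, 0.291, 2.03 and 0.401 FPKM, and the MG53-TG samples had 5.22, 2.47, 5.42 and 6.36 FPKM. WT sample 3 stood above the other WT samples, close to MG53-TG sample 2, and the groups did not overlap. The means were 0.757 ± 0.852 and 4.87 ± 1.67 FPKM (SD, n = 4 each), with a log2 fold change of 1.79 (SE 0.33, limma adjusted p = 0.00293). This value rests on the ends of the gene. Its starts alone gave 1.35 with a limma adjusted p of 0.102.

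The listed starts of Entpd8 differed between samples. The start at the second annotated exon (chr2:25081811-25081947) had 3.81, 0.161, 1.86 and 9.01 FPKM in the MG53-TG samples, and 0.140, 1.84 and 0.0565 FPKM in WT samples 1, 3 and 4, with no entry in WT sample 2. In MG53-TG sample 2 the leading start, with 3.20 FPKM, lay upstream at chr2:25079194-25079311 and matched no exon of the gene, so it was left out of the sum of starts. Of the FPKM of matched starts, the second exon took 45.1 ± 44.8% in WT and 80.2 ± 17.7% in MG53-TG (SD, n = 4 each; two-sided exact permutation p = 0.257, adjusted over 4 shares 0.257). The main end (chr2:25084961-25085716) took 81.0 ± 28.1% and 98.8 ± 0.923% of end FPKM (exact permutation p = 0.0857, adjusted 0.171). With 4 shares adjusted together a single share could not go below 0.114, so these tests could not call one.

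The RefSeq promoter window of Entpd8, 250 bases before to 50 bases after the annotated start, lies at the first exon and not at the second. It is printed because it held 2 adjoining motifs among 5 searched on both strands in the windows of the 6 genes that had one (Xdh was not matched). Of the others, one was the GC box, GGGCGG, which is described with Ada. Another was the TATA box, spelled TATAAA, which 13.6% of all promoters and 0 of the 6 windows held. The GATA motif was searched as AGATAA and was held by 11.2% of all promoters and by the window of Slc28a2. The core of nuclear receptor elements was searched as AGGTCA. The HNF4 core was searched as CAAAGTCC. Capitals mark the nuclear receptor core and the HNF4 core, which begin 24 and 14 bases before the start, and which occurred in 16.3% and 1.42% of 32851 promoters of the same length. The window is chr2:25080073-25080372, plus strand, GRCm38.p6.
Entpd8 promoter: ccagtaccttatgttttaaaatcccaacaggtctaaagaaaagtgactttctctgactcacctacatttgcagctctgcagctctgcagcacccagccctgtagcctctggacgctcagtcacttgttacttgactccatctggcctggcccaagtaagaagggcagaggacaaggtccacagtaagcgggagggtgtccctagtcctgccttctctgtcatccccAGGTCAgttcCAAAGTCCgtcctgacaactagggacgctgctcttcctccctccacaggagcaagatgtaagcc

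Nt5e (chr9:88327197-88372092, plus strand) encodes the ecto-5′-nucleotidase that turns AMP into adenosine. It had no entry in WT samples 1 and 2, 0.421 and 0.443 FPKM in WT samples 3 and 4, and 0.629, 0.642, 0.710 and 0.646 FPKM in the MG53-TG samples. All MG53-TG samples lay above all WT samples, but the mean over all 8 samples was under the filter, so it was not among the genes tested. In a fit without the filter its log2 fold change was 0.47 (SE 0.14, limma adjusted p = 0.0316). The call was lost when WT sample 1, WT sample 2 or any single MG53-TG sample was left out, with limma adjusted p between 0.0543 and 0.0758. It was also lost with a pseudocount of 0.1, which moved the log2 fold change to 1.71 at a limma adjusted p of 0.0642. With the 2 absent values taken as missing rather than 0, its log2 fold change came to 0.21 at a limma adjusted p of 0.256.

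Slc28a1 and Slc28a2 encode sodium-coupled nucleoside carriers of the apical membrane, the first preferring pyrimidine and the second purine nucleosides. Slc28a1 (chr7:81114799-81170416, plus strand) had no entry in the 4 WT samples and in MG53-TG sample 2. Its end had 0.740, 1.37 and 0.151 FPKM in MG53-TG samples 1, 3 and 4. These levels were under the filter, and no fold change is given against a group without an entry.

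Slc28a2 (chr2:122426477-122461137, plus strand) had 1.89, 2.004, 2.20 and 1.71 FPKM in WT and 3.98, 1.15, 0.646 and 1.91 FPKM in MG53-TG by its listed starts. The WT samples lay close together, whereas the MG53-TG samples lay on both sides of them. The log2 fold change was -0.14 (SE 0.30, limma adjusted p = 0.735). In MG53-TG samples 1 and 2 the listed starts made up 88.1% and 32.9% of the FPKM of transcripts with a splice between positions 122456402 and 122457884, which the coding transcripts share, so starts worth 0.536 and 2.34 FPKM were not listed. In MG53-TG sample 3 the missing 0.654 FPKM was listed at a start (chr2:122427221-122427274) that matched no exon of Slc28a2. Read by that intron, the MG53-TG samples had 4.51, 3.49, 1.30 and 1.91 FPKM, the WT values were as above, and the log2 fold change was 0.28 (SE 0.26, limma adjusted p = 0.398). The difference did not exceed the spread between samples by either reading. The neighbouring gene Gm14085, whose coding sequence is 94.5% identical over an alignment with 1980 bases in each, was not listed, and how reads matching both genes were assigned is not given in the sources used here.

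Ada (chr2:163726584-163750239, minus strand) encodes adenosine deaminase, which turns adenosine into inosine. The WT samples had 6.86, 6.41, 5.45 and 7.02 FPKM, and the MG53-TG samples had 23.6, 18.3, 18.9 and 21.1 FPKM. Both groups were narrow, and the lowest MG53-TG sample lay far above the highest WT sample. The means were 6.43 ± 0.703 and 20.5 ± 2.41 FPKM (SD, n = 4 each), and the log2 fold change was 1.53 (SE 0.12, limma adjusted p = 3.0e-05). It stayed between 1.46 and 1.70 under all 22 alternatives run.

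A single start was listed for Ada in all samples (chr2:163750059-163750239). Its main end took 99.7 ± 0.341% of end FPKM in WT and 92.6 ± 8.06% in MG53-TG (SD, n = 4 each; exact permutation p = 0.0571, adjusted over 4 shares 0.171). The promoter window at this start is printed because it lies at the only listed start of Ada. In MG53-TG sample 2 this start had 18.3 FPKM and transcripts with the exon described next had 20.4 FPKM, so the start did not account for all of them. It is chr2:163750190-163750489, minus strand, GRCm38.p6, and 68% of its bases are G or C, against a median of 52.7% over all promoters. Capitals mark 2 copies of GGGCGG, a motif found on either strand in 35.7% of all promoters and in 4 of the 6 members' windows.
Ada promoter: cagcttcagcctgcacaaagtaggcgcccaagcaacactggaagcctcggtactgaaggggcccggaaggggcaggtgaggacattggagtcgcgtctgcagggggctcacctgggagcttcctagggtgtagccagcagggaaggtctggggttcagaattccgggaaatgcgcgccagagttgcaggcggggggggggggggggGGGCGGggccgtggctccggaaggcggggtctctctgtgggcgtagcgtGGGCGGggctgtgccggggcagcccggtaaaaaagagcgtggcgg

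No transcript that skips an exon of 65 bases in Ada was listed in 7 samples. In MG53-TG sample 4, transcripts without it had 9 FPKM and transcripts with it had 12.1 FPKM, so the exon was skipped in 42.6% of the FPKM of that sample. This event was picked after the values were seen and occurs in 1 sample, so it was not compared between groups. The length of the exon is not a multiple of 3. The exon is chr2:163730012-163730076, minus strand, GRCm38, in lower case throughout since nothing in it is singled out.
Ada exon: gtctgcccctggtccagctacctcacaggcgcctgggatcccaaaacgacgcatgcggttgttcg

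Pnp encodes purine nucleoside phosphorylase, which splits inosine and guanosine into a base and a sugar phosphate. Its listed starts gave 25.7, 7.05, 36.1 and 27.2 FPKM in WT and 4.02, 3.62, 33.2 and 2.88 FPKM in MG53-TG. MG53-TG sample 3 lay among the higher WT samples and WT sample 2 near the lower MG53-TG samples. Pnp thus had a log2 fold change of -1.55 (SE 0.74, limma adjusted p = 0.118), and leaving out MG53-TG sample 3 moved it to -2.28 (0.0091).

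The second exon of the transcript Pnp-201 (chr14:50947852-50948021, plus strand) gave another order. Transcripts with this exon had 25.5, 46.0, 36.0 and 26.9 FPKM in WT and 68.6, 63.8, 33.1 and 66.2 FPKM in MG53-TG. In this reading 3 of the 4 MG53-TG samples lay above all WT samples, and MG53-TG sample 3 lay among them. The means were 33.6 ± 9.46 and 57.95 ± 16.7 FPKM (SD, n = 4 each), with a log2 fold change of 0.75 (SE 0.27, limma adjusted p = 0.0465, two-sided exact permutation p = 0.0857). The call was kept only without WT sample 2 or MG53-TG sample 3 when single samples were left out. At the other 6 samples left out, the limma adjusted p lay between 0.072 and 0.115. This reading, the largest event of each gene, was added after the values had been seen, and by it 44.6% of all genes were called, 15.7% higher and 28.9% lower.

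Both readings can be set against each other within a sample. Together with a short transcript that ends in the intron behind the exon, the exon event should equal the sum of the starts, and it did so in WT samples 1, 3 and 4 and in MG53-TG sample 3. In WT sample 2 the listed starts made up 15.3% of it, and in MG53-TG samples 1, 2 and 4 they made up 5.85%, 5.67% and 4.35%. In these 4 samples a start worth between 39.1 and 64.7 FPKM was not listed, so the lower sums of starts are incomplete. The log2 fold change of -1.55 rests on these incomplete sums, so it is not read as a lower level of Pnp. No difference in Pnp that held in both readings was found.

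**Figure D2:**
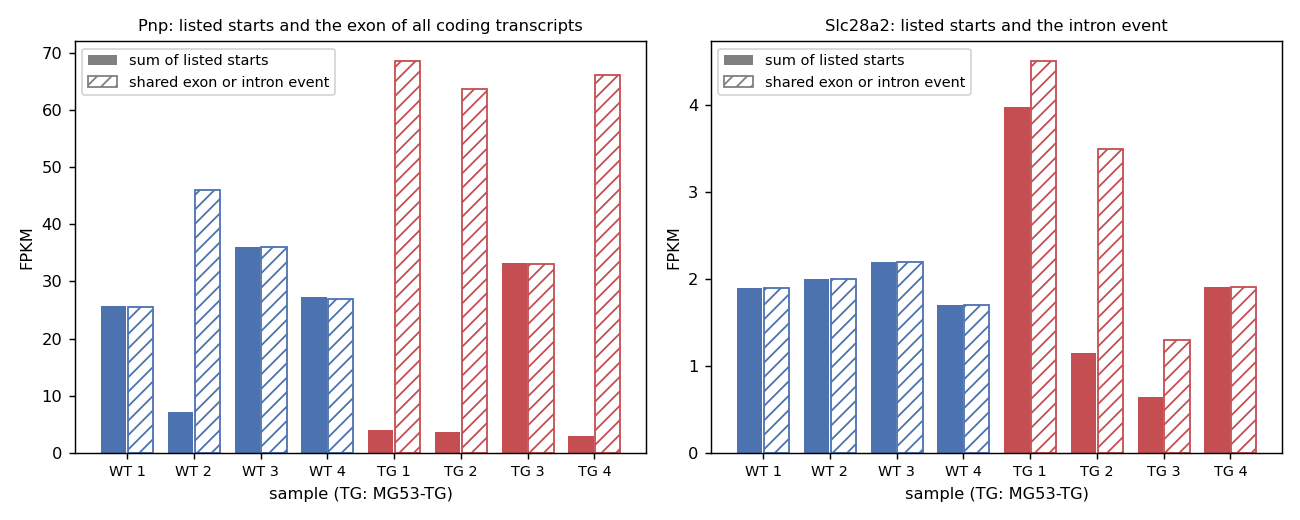
FPKM per sample (vertical axes) of the listed starts (filled bars) and of the event shared by the coding transcripts (hatched bars) for Pnp, an exon, and Slc28a2, a spliced intron. The bars match in 4 samples for Pnp and in 5 for Slc28a2, and the filled bars fall short in the others.

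Pnp also shares sequence with its neighbour Pnp2 (chr14:50955992-50964749, plus strand), a second purine nucleoside phosphorylase gene. The exons that carry the reading above are 170 bases long in both genes and differ at 1 base, and the coding sequences are 93% identical, so the split of reads between them is uncertain. Capitals mark the base that differs. The Pnp2 exon is chr14:50959515-50959684, plus strand, GRCm38.
Pnp exon: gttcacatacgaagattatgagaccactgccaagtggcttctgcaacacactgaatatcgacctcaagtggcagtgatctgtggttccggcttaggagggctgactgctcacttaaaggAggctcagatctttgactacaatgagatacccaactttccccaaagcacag
Pnp2 exon: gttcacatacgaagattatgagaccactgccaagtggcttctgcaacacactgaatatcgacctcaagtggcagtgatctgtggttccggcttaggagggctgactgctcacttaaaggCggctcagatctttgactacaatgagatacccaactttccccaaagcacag

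The start of Pnp2 was named Pnp in the files and was assigned by its exon. Pnp2 had 6.71, 7.15, 8.77 and 6.97 FPKM in WT and 12.7, 10.4, 15.8 and 13.7 FPKM in MG53-TG. The groups did not overlap, and the log2 fold change was 0.74 (SE 0.14, limma adjusted p = 0.00344). The Pnp exon and Pnp2 together had 32.3, 53.1, 44.8 and 33.9 FPKM in WT and 81.3, 74.2, 48.9 and 79.9 FPKM in MG53-TG. In this sum MG53-TG sample 3 lay below WT sample 2 and the other MG53-TG samples lay above all WT samples. No test was made of it.

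Xdh (chr17:73883895-73950196, minus strand) encodes xanthine dehydrogenase, the enzyme that makes urate. The WT samples had 0.129, 1.72, 3.36 and 1.72 FPKM, and the MG53-TG samples had 8.37, 11.4, 20.9 and 13.3 FPKM. WT sample 1 was almost at 0 and MG53-TG sample 3 was the highest, and the groups did not overlap. The means were 1.73 ± 1.32 and 13.5 ± 5.35 FPKM (SD, n = 4 each), and the log2 fold change was 2.49 (SE 0.41, limma adjusted p = 0.00159), the largest among the genes of the set that were tested.

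Most Xdh transcripts started at the annotated first exon (chr17:73950078-73950182), with 95.8 ± 3.48% of start FPKM in WT and 98.3 ± 0.358% in MG53-TG (SD, n = 4 each; exact permutation p = 0.257, adjusted 0.257). The only end listed for Xdh was that of a short form (chr17:73888979-73889410), with 0.199, 0.0665, 0.112 and 0.113 FPKM in WT and 0.253, 0.206, 0.175 and 0.202 FPKM in MG53-TG. By this end alone the log2 fold change was 0.11 with a limma adjusted p of 0.113, and these ends amounted to far less than the starts in every sample but WT sample 1, where the end exceeded the starts. In the other 7 samples most ends of Xdh were thus not listed.

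Transcripts of Xdh with an exon that runs on into an intron (chr17:73887886-73891299) were at similar levels in most samples, whereas those spliced from position 73891111 to 73886519 were not. The intron-retaining form had 1.23, 0.129 and 1.45 FPKM in WT samples 2, 3 and 4, no entry in WT sample 1, and 1.05, 0.851, 1.2 and 1.14 FPKM in MG53-TG. The spliced form had 8.4e-05, 0.336, 3.08 and 0.140 FPKM in WT and 6.98, 10.1, 19.1 and 11.6 FPKM in MG53-TG. Of both forms together, the retained form thus made up 78.5%, 4.03% and 91.2% in WT samples 2, 3 and 4, but from 5.9% to 13.1% in MG53-TG. The short form described above was left out of this share. WT sample 3 resembled the MG53-TG samples in this share. The event was picked after the values were seen, so the values are a description.

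**Figure D3:**
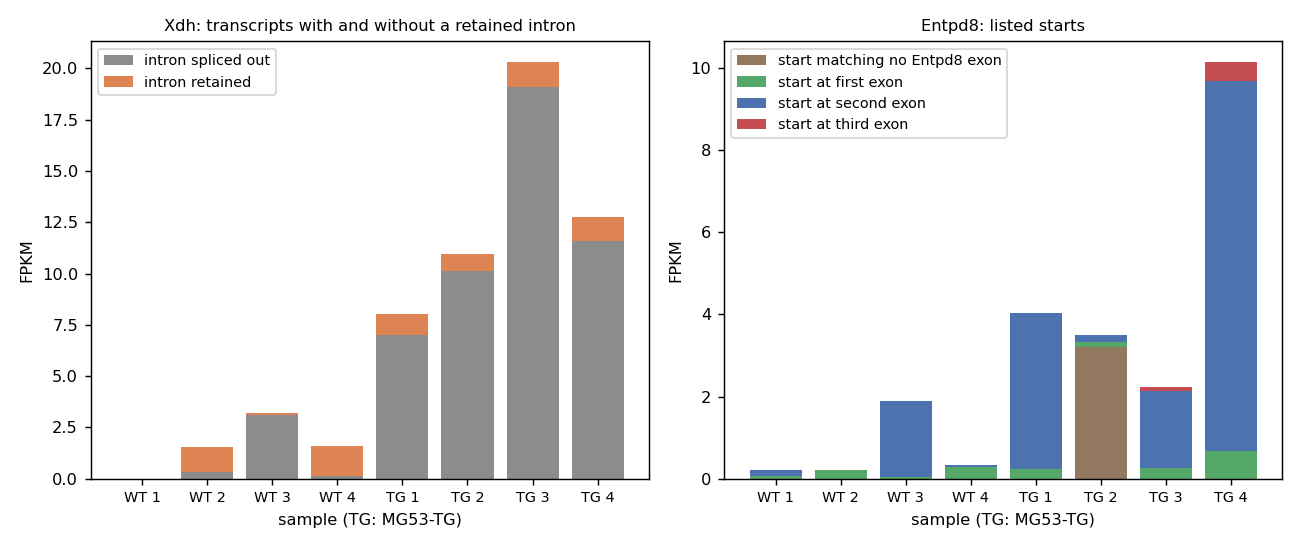
FPKM per sample (vertical axes) as stacked bars for the 4 WT and the 4 MG53-TG samples. On the left are Xdh transcripts with the retained intron and those spliced from position 73891111 to 73886519, without the short form. The listed starts of Entpd8 are on the right. The retained form of Xdh reaches at most 1.45 FPKM while the spliced form reaches 19.1 FPKM, and the leading start of Entpd8 in MG53-TG sample 2 matches no exon of the gene.

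FPKM is scaled to transcript length, so levels of different genes can be set side by side. In WT the order of mean FPKM was Pnp by its exon event with 33.6, Ada with 6.43, Slc28a2 with 1.95, Xdh with 1.73, Entpd8 with 0.757 and Nt5e with 0.216, and Slc28a1 had no entry. The ranges of Slc28a2, Xdh and Entpd8 overlapped in WT, and that of Nt5e overlapped those of Xdh and Entpd8. In MG53-TG the order was Pnp with 57.95, Ada with 20.5, Xdh with 13.5, Entpd8 with 4.87 and Slc28a2 by its intron event with 2.80. There the ranges of Ada and Xdh overlapped, as did those of Entpd8 and Slc28a2. The coding transcripts of Pnp are 2942, 1306 and 671 bases long, so its FPKM also depends on which of them the reads were assigned to, whose part was not tested.

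The genes whose pattern over the 8 samples lay nearest were found by the root mean square difference of log2(FPKM + 1), each gene centred on its mean, among 10637 genes without a missing value. For Ada they were Rnd2 at 0.0966, Fam53b at 0.137 and Asb13 at 0.142. For Entpd8 they were 4930447F24Rik at 0.246, Exoc3l4 at 0.28 and Neu3 at 0.298, and for Xdh they were Ms4a8a at 0.371, Tmem253 at 0.4 and Slc25a45 at 0.427. By its listed starts Slc28a2 lay nearest to Tjap1 at 0.194, Rpp14 at 0.208 and Rnf25 at 0.228. The nearest genes of Pnp by its listed starts, Alox12b, Gm6483 and Hmgn2, were all at 0.766 or more. The listed starts of both genes were incomplete in several samples, so these distances need not hold for the levels of the genes.

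Other enzymes of nucleotide hydrolysis, most of them at the cell surface, did not move one way. Of 12 tested, 6 were higher and 4 lower in MG53-TG, with a median log2 fold change of 0.49 against -0.17 over all genes tested. The counts of this and the following lists stand beside 15.5% higher and 28.8% lower among all genes tested. Enpp3, which splits extracellular nucleotides, went from 0.0662 ± 0.0508 to 11.04 ± 4.64 FPKM (SD, n = 4 each, as for the values that follow; log2 fold change 3.41, limma adjusted p = 3.2e-05). Bst1, a surface enzyme that consumes NAD, went from 0.540 ± 0.0911 to 12.7 ± 8.16 FPKM (log2 fold change 2.94). Alpi, an intestinal alkaline phosphatase of the brush border, went from 17.1 ± 2.50 to 107 ± 8.91 FPKM (log2 fold change 2.58), whereas Akp3, another alkaline phosphatase, went from 14.9 ± 0.918 to 3.02 ± 3.39 FPKM (log2 fold change -2.45). Enpp1 fell by 1.17 on the log2 scale.

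Among the relatives of Entpd8, Entpd5 and Entpd7 were higher in MG53-TG, with log2 fold changes of 0.79 and 0.72, and Entpd4 was lower, with -0.86. These 3 act in compartments inside the cell. Entpd2, a surface enzyme like Entpd8, had 14.3 ± 3.08 and 17.2 ± 3.47 FPKM and did not pass the test (limma adjusted p = 0.273). Entpd6 was lower by 0.42 on the log2 scale, but the limma adjusted p was above 0.05 when any one sample other than MG53-TG sample 2 was left out, and up to 0.104. It also lost the call without the filter and under either rescaling, with limma adjusted p of 0.051 to 0.0982. Entpd3 was listed in 2 samples only, at 0.340 FPKM in WT sample 4 and 0.445 FPKM in MG53-TG sample 1, and Entpd1 was not listed.

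Of 4 other nucleoside transporters tested, 0 were called by limma in either direction and 2 had an unadjusted p of at most 0.05, with a median log2 fold change of -0.08; under median-of-ratios or quantile scaling 1 was higher, Slc29a3, which is named after its values were seen. Slc29a1, the main equilibrative carrier, had 22.5 ± 2.59 FPKM in WT and 13.7 ± 6.49 FPKM in MG53-TG. Its groups did not overlap, and the limma adjusted p was 0.0627. It was called lower without MG53-TG sample 1 or 2, at a limma adjusted p of 0.0406 or 0.02, and with array weights, at 0.0309. Without MG53-TG samples 1 and 2 it fell by 1.35 on the log2 scale (limma adjusted p = 0.000818). Its end events alone gave -0.02 on the log2 scale at a limma adjusted p of 0.954.

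Inside the cell, 3 of 11 other breakdown genes were higher and 3 lower, against 15.5% and 28.8% of all genes tested. Their median log2 fold change was -0.03. Gda, the guanine deaminase that feeds xanthine to Xdh, had 0.973, 1.05, 0.058 and 0.573 FPKM in WT and 5.32, 5.70, 23.6 and 22.3 FPKM in MG53-TG. MG53-TG samples 3 and 4 stood well above samples 1 and 2, and all 4 stood above WT (log2 fold change 2.95, SE 0.49, limma adjusted p = 0.00179). Ampd3, an AMP deaminase, fell by 1.79, Itpa by 0.72 and Nt5c3 by 0.66 on the log2 scale.

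The molybdenum cofactor that Xdh needs is made by several enzymes, of which Mocs1, the first, was higher (log2 fold change 0.52) and Gphn, the last, was lower (-0.53). The call of Mocs1 was lost without MG53-TG sample 1 or 4, at a limma adjusted p of 0.0517 or 0.0602. Among molybdenum enzymes, Suox, the sulfite oxidase, was lower (-0.69). Marc2, an amidoxime reductase, went from 28.8 ± 7.21 to 189 ± 56.2 FPKM (log2 fold change 2.66).

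The list of transporters of urate, the product of Xdh, had 4 of 5 genes called higher and 0 lower, with a median log2 fold change of 1.13. One of the 4, Slc17a5 (log2 fold change 0.49), is known as a lysosomal carrier of sialic acid rather than of urate. Slc2a9, a urate carrier, went from 1.23 ± 0.189 to 5.73 ± 2.73 FPKM (log2 fold change 1.51, limma adjusted p = 0.00199). Abcg2, an apical pump that secretes urate, went from 8.60 ± 1.72 to 24.1 ± 5.59 FPKM (1.38), and Slc17a4 from 5.83 ± 1.34 to 13.9 ± 2.93 FPKM (1.13). None of these groups overlapped. Abcc4, a pump that exports urate among other substrates and is named after its values were seen, had 3.003 ± 0.275 FPKM in WT and 1.38 ± 1.22 FPKM in MG53-TG, with overlapping groups (log2 fold change -0.91, limma adjusted p = 0.0643). It was called lower without MG53-TG sample 2 (limma adjusted p = 0.0154) and with array weights (0.0318), and without MG53-TG samples 1 and 2 it fell by 1.56 on the log2 scale (0.00121).

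Genes of purine salvage went in both directions, with 3 of 9 higher and 3 lower, against 15.5% and 28.8% of all genes tested. Adk, the adenosine kinase that competes with Ada for adenosine, had 26.3 ± 1.19 and 26.9 ± 2.21 FPKM, and Hprt, which recycles hypoxanthine, had 85.99 ± 2.49 and 85.02 ± 6.12 FPKM. Neither passed the test, with limma adjusted p of 0.837 and 0.868, and Aprt was not listed. The nucleotide kinase gene Guk1 was higher by 0.45 on the log2 scale, and Ak4 and Ak6 were lower (-1.12 and -0.94). The call of Ak6 was lost with end events alone (limma adjusted p = 0.12). Ak3 was higher (0.80) but lost its call without MG53-TG sample 3 or 4, at a limma adjusted p of 0.0823 or 0.0776, and Dck was lower (-0.88) but lost its call without any single WT sample or MG53-TG sample 3 or 4, at 0.054 to 0.0816.

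De novo purine synthesis, which builds the ring from small precursors, was mostly lower. Of 13 genes tested 8 were called lower and 0 higher, with a median log2 fold change of -0.78, whereas under median-of-ratios or quantile scaling 7 were lower and 1 higher. Paics went from 38.95 ± 1.76 to 13.01 ± 7.52 FPKM, Gart from 23.7 ± 3.69 to 10.9 ± 5.33 FPKM and Atic from 42.6 ± 2.75 to 20.2 ± 6.66 FPKM. All 3 catalyse steps of the pathway, and their groups did not overlap. The sum over the list was 220 and 240 FPKM in MG53-TG samples 1 and 2 and 154 and 146 FPKM in samples 3 and 4. In WT it was 300 to 309 FPKM. Of the list, 10 genes were lower without samples 1 and 2 and 7 without samples 3 and 4. The calls over all genes moved too, to 5930 (30.2% of them higher) without samples 1 and 2. Without samples 3 and 4 they came to 3848 (37.6% higher).

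On the pyrimidine side, 2 of 10 genes were higher and 2 lower, against 15.5% and 28.8% of all genes tested. Cda, which deaminates cytidine as Ada deaminates adenosine, went from 37.3 ± 4.28 to 134 ± 29.5 FPKM (log2 fold change 1.80, limma adjusted p = 6.0e-05), and Dpyd, the first enzyme of uracil breakdown, from 11.04 ± 0.663 to 34.9 ± 13.8 FPKM (1.49). Uck2, a salvage kinase, fell by 1.18 on the log2 scale. Tk1 was lower by 1.29, with the call lost without any single WT sample or MG53-TG sample 3, at a limma adjusted p of 0.0508 to 0.0758. Of 5 receptors for adenosine or nucleotides tested, 0 were higher and 1, P2ry6, was lower (-0.76), a call lost with start events alone (limma adjusted p = 0.0584). Adora1, an adenosine receptor named after its values were seen, had 0.156, 0.507, 5.58 and 5.56 FPKM in MG53-TG samples 1 to 4. In WT it had 0.409 FPKM or less, and the groups overlapped (log2 fold change 1.18, limma adjusted p = 0.1225). It was called higher in 1 of 8 fits with a single sample left out, at a limma adjusted p of 0.0298.

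**Figure D4:**
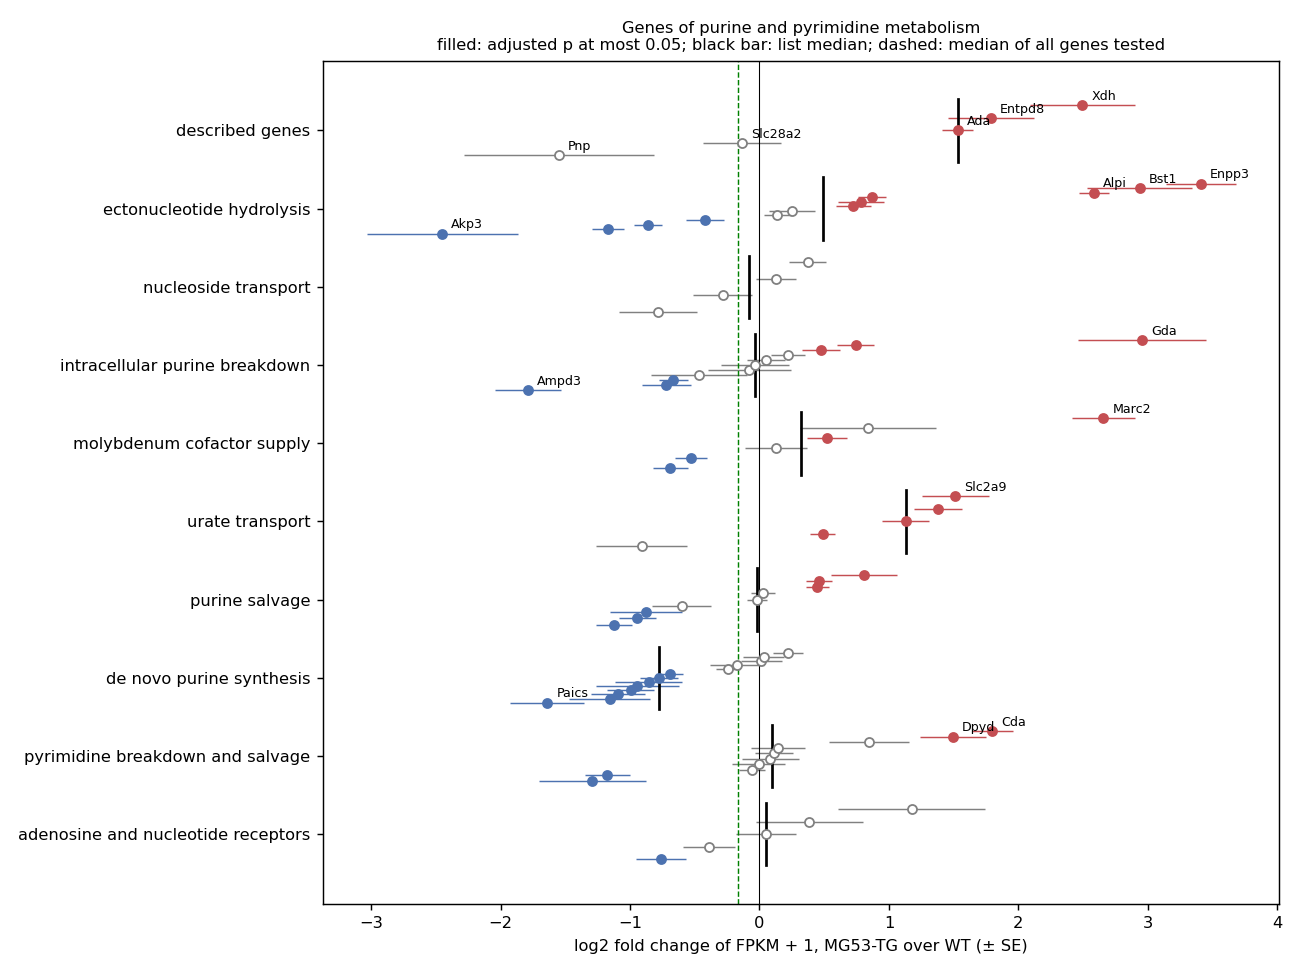
Log2 fold change of FPKM + 1 in MG53-TG over WT with its standard error (horizontal axis) for each tested gene, by list; the described genes are the 5 that passed the filter. Filled points are called, black bars are list medians and the dashed line is the median of all genes, -0.17; urate transport lies mostly to the right and de novo purine synthesis to the left.

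The scaling of the values moved all genes together. As deposited, genes had a median log2 fold change of -0.17, and median-of-ratios scaling put it at -0.01. Of the called genes 34.9% were higher as deposited, 50% after median-of-ratios scaling and 44% after quantile normalization. Under median-of-ratios scaling Ada, Entpd8 and Xdh had log2 fold changes of 1.7, 1.9 and 2.63, each still called.

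Genes of other villus positions and cell types were read beside the set. The set is known from the villus tip, but tip genes outside purine metabolism did not share a direction, with 3 of 7 higher and 4 lower. Apoa4, Creb3l3 and Krt20 were higher (log2 fold changes 4.33, 3.92 and 2.63), and Egfr, Fos, Klf4 and Cdh1 were lower (-1.07, -1.03, -1.02 and -0.80). Of 8 villus base genes 6 were higher and 1 lower, led by the secreted lectins Reg1, from 2.88 ± 0.665 to 353 ± 169.8 FPKM, and Reg3a, from 0.469 ± 0.104 to 80.1 ± 43.2 FPKM. The 1 lower gene, Nlrp6, lost its call under median-of-ratios scaling (limma adjusted p = 0.134), without any of WT samples 2, 3 and 4, and without MG53-TG sample 1 (0.0507 to 0.065). Since the tip genes went both ways, the 7 genes are named by their pathway.

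All 10 enterocyte markers, among them Fabp1, Apoa1 and Sis, were higher, and their sum lay between 651 and 760 FPKM in WT and between 8010 and 10300 FPKM in MG53-TG. Of 6 stem cell markers 5 were lower, led by Olfm4 (log2 fold change -4.01), with sums of 499 to 672 and 56.1 to 292 FPKM. Olfm4 had 50.1, 57.7, 6.07 and 0.948 FPKM in MG53-TG samples 1 to 4. With single samples left out, its log2 fold change ran from -4.69 to -3.05. Paneth markers were lower in 5 of 5 (4 of 5 under median-of-ratios scaling), goblet markers in 4 of 6 and proliferation genes in 6 of 8 (in 3 without any single WT sample or MG53-TG sample 3, in 8 without MG53-TG samples 1 and 2 and in 7 without samples 3 and 4), and enteroendocrine markers were higher in 4 of 5. Calls over all genes also moved between the fits without pairs of MG53-TG samples, as given with de novo purine synthesis. Zg16, a goblet marker named after its values were seen, had 9.18 ± 2.67 FPKM in WT and 33.65 ± 27.99 FPKM in MG53-TG. Its groups overlapped (log2 fold change 1.33, limma adjusted p = 0.119). It was called higher in 1 of 8 fits with a single sample left out, at a limma adjusted p of 0.0275. The part of these cell type changes in the values of Entpd8, Ada and Xdh was not tested. Of the tuft markers 0 passed the filter, and of the immune markers 1 did, Cd68, which was lower with sums of 3.77 to 9.24 and 0.609 to 1.47 FPKM over the list. The mesenchyme markers Col1a1, Col1a2 and Col3a1 were listed in MG53-TG samples 2, 3 and 4 only, at 2.07 FPKM or less, and Pdgfra, Pecam1 and Cdh5 were not listed.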

How the data were processed

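Total RNA of 4 WT and 4 MG53-TG crypt organoid samples had been sequenced, and samples were grouped by the genotype in the labels. According to the methods of the study and the submitters' processing notes, the authors used Cutadapt 1.9.1 for trimming, HISAT2 2.0.1 for mapping to mm10 and HTSeq 0.6.1 for FPKM; the deposited files give FPKM by transcript event. The tool that defined the events is not given in the sources used here. Starts and ends were matched to exons of the GENCODE annotation (GRCm38). Of 49773 such events 94.2% were placed and 4.84% lay in a gene that differed from the name in the files.

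Events were added up per gene and sample. Where a gene had no entry in a sample, it counted as missing if its group had a median of 0.5 FPKM or more, and as 0 if not. The main test was limma 3.58.1 in R 4.3.3 (lmFit, then eBayes with trend) without covariates, after a filter at a mean of 0.5 FPKM and a pseudocount of 1. Values of Nt5e, which is under the filter, come from an unfiltered fit. Shares and single genes were tested by exact permutation (two-sided; 70 relabellings, smallest p 0.0286, or 0.114 for a share that alone reaches it, once adjusted over 4 shares). Python 3.11.15 with pandas 2.3.3, scipy 1.17.1 and Biopython 1.88 served for the other steps.

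The genes and lists were chosen with earlier results of these data known. Named from each list were called genes with groups that do not overlap and a mean of at least 2 FPKM in a group, at most 3 in each direction, plus genes next to a member in the pathway; a gene that this rule names is not reported here. On simulated data of 10638 genes with 200 changed, the fit recovered 68% of those changed by 1 and 90% of those changed by 2 on the log2 scale, and called 12 unchanged genes. Far fewer genes were changed there than the 44.3% called in the data, so these rates need not hold for this comparison. Alternatives were the pseudocount, the filter, scaling, array weights, start or end events alone, the treatment of absent genes, the replicate number as a block and leaving out each sample. The largest event, absent genes always missing and leaving out MG53-TG samples 1 and 2 or 3 and 4 were added after seeing the data.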

Additional observations from a re-analysis of the deposited data

Results flagged for a closer look

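A single sample lay far from the other 3 of its group in 16 of 162 groups of 4 examined, whereas chance gives about 8.1 (1 in 20), and several of these groups share samples or genes. Among the members, Entpd8 had 2.03 FPKM in WT sample 3, which was also the WT sample with the most spliced Xdh. The main end of Entpd8 took 39.3% in WT sample 4, and that of Ada took 99.2% in WT sample 1, a small gap in a narrow group. Pnp had 33.2 FPKM by its listed starts and 33.1 FPKM by its exon event in MG53-TG sample 3, high among the first and low among the second.

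Among genes of the other purine lists, Ak3 had 34.6 FPKM and was low in WT sample 2, Paics had 24.2 FPKM and was high in MG53-TG sample 2, and Adk had 24.6 FPKM and was low in WT sample 3. Entpd2 had 18.9 FPKM and was high in WT sample 3. Entpd3 had 0.340 FPKM in WT sample 4 and 0.445 FPKM in MG53-TG sample 1, in both cases the single sample of the group in which it was listed.

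Among the position and cell type markers, Egfr had 5.29 FPKM in WT sample 1, Apoa1 had 828 FPKM in MG53-TG sample 4, Defa24 had 716 FPKM in WT sample 4 and Mcm5 had 29.6 FPKM in WT sample 1, each the highest of its group. Tac1 had 16.3 FPKM in MG53-TG sample 1, the lowest of its group.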

How the results depend on the processing

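The call of Ada kept its side of the threshold in all 22 alternatives, and those of Entpd8 and Xdh in 21 of 22. Entpd8 lost the call with start events alone (log2 fold change 1.35, limma adjusted p = 0.102), and Xdh with end events alone (0.11, 0.113), since only the end of a short form is listed. Leaving out each sample gave 1.46 to 1.58 for Ada, 1.66 to 2.09 for Entpd8 and 2.12 to 2.77 for Xdh. Pnp reversed with the largest event (0.75, limma adjusted p = 0.0465), and was called lower without MG53-TG sample 3, with values of -2.28 to -1.23 over the samples left out. Every lower call of Pnp, here and below, rests on its listed starts, which were incomplete. Nt5e lost its call with a pseudocount of 0.1 (log2 fold change 1.71, limma adjusted p = 0.0642) and with absent values missing (0.21, 0.256), and gave 0.38 to 0.56 over the samples left out, called in 2 of 8 fits. Without MG53-TG samples 1 and 2, Nt5e (0.49, limma adjusted p = 0.0945), Mocs1 (0.48, 0.0861) and Nlrp6 (-0.33, 0.0572) lost their calls, and Prps2 turned from 0.01 to -0.26 (0.0383). Without samples 3 and 4, Nt5e (0.45, 0.152), Mocs1 (0.56, 0.0551), Ak3 (0.51, 0.229) and Entpd6 (-0.20, 0.203) lost theirs, and Pnp was called lower (-2.18, 0.0294). Without the filter 5 of the genes passed the threshold, 5 higher, while 4965 were called over all genes, 36.2% of them higher. Slc28a1 did so with its absent values counted as 0 in WT and as missing in MG53-TG. That rule fixes its direction, and it is not read as a call. The call of Nt5e also rests on absent WT values counted as 0. Over all genes, 3875 to 5163 were called when a sample was left out, and 3611 with end events alone.

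With the replicate number as a block, 4419 genes were called, and Pnp was called lower (log2 fold change -1.55, limma adjusted p = 0.0462). Mocs1 lost its call and Slc29a1 gained one, at 0.0503 and 0.0499. The deviations of samples with the same number correlated by 0.0932, -0.0133, 0.0908 and -0.0568, and 4 of 8 samples matched their own number best, so the numbers do not pair the samples. The 4 shares of starts and ends allow no statement on stability, since a single share could not pass the threshold after adjustment. Why these values moved was not tested. The depth is unknown, so the precision of values under 1 FPKM cannot be given.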
